A study of Homo sapiens with 40 samples.

Results

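The RNA recovered with the DEAD-box helicase DDX6 was compared with the total RNA of the same RNA immunoprecipitation (RIP) experiment, gene by gene. The comparison rests on 6 of the 40 RNA-Seq libraries of the series, 3 from the DDX6 IP and 3 from total RNA, and both groups were taken from the labels and not from any measured value. The source was HEK293, an established human embryonic kidney cell line, and the cells behind these 6 libraries received no siRNA. DDX6 was precipitated as the endogenous protein, untagged, with an antibody against DDX6 from a native lysate, and total RNA was taken from the same type of lysate before precipitation. Enrichment is therefore measured over total RNA. A control IgG precipitation was not analysed here, so RNA held by DDX6 and RNA held by the beads or the antibody cannot be told apart. The RIP experiment also holds 3 eIF4A1 IP and 3 eIF4A2 IP libraries from untreated HEK293 cells. They are used below only to show where the DDX6 IP differs from the IP of another DEAD-box helicase. A further readout came from sucrose gradients of HEK293 cells given control siRNA or CNOT1 siRNA, with subpolysomal, polysomal and input RNA from 4 gradients per siRNA, and from total RNA of cells in which TNRC6A and TNRC6B were knocked down together, beside its own control siRNA (n = 2 each). The labels do not say that replicates came from separate cultures, so p-values measure the spread between these samples, which may be technical.

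DDX6 is the human member of a helicase family that holds mRNAs in a repressed state. It binds the scaffold CNOT1 of the Ccr4-Not deadenylase complex. It also binds the decapping activators PATL1, EDC3 and the LSM14 proteins, and the translational repressor 4E-T (EIF4ENIF1), and it is required for the cytoplasmic granules called P-bodies. eIF4A1 and eIF4A2 are paralogous helicases, of which eIF4A1 is the helicase of the cap-binding complex eIF4F. All values below are of mRNAs, so that a gene's name stands for its transcript and not for the protein it encodes.

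The libraries held 29.5 to 43.5 M counts (M, mega) for total RNA and 43.4 to 45.4 M for the DDX6 IP. Levels are given as CPM, read counts scaled to library size, by library totals for the markers here and by the TMM method elsewhere. Markers of HEK293 cells were present in total RNA, with NEFM at 3310 to 4210 CPM, NEFL at 714 to 917 and VIM at 387 to 476. SOX4 stood at 101 to 115, KRT18 at 13.5 to 24.3, KRT8 at 8.53 to 10.2 and PAX2 at 0.598 to 0.858 CPM. Of the markers of other cell types, PTPRC, ALB, CDH5, MYH7 and INS had 0 to 3 counts in each total RNA library, GFAP stood at 0.454 to 0.713 CPM and COL1A1 at 11.6 to 14.8 CPM. The library most unlike the others of its group in total counts was total RNA replicate 3, the shallowest at 29.5 M.

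To ask which mRNAs associate with DDX6, each of 17474 genes was tested with edgeR's quasi-likelihood test on the 12 RIP libraries. At a Benjamini-Hochberg false discovery rate (FDR) below 0.05, 3965 genes were higher in the DDX6 IP than in total RNA (22.7% of those tested) and 4079 were lower (23.3%). A log2 fold change of at least 1 was reached by 1467 of the higher genes, and 1729 of the lower genes lay at or below -1. In 3901 of the higher and 3990 of the lower genes the 3 IP libraries did not overlap the 3 total RNA libraries. Over all genes tested, 29.3% had IP libraries above and 29.0% IP libraries below every total RNA library. CPM is a share of a library, so an mRNA can be higher in the IP because more of it was bound or because less of the others was. In bulk RNA, fewer cells of a type and less RNA per cell cannot be told apart. The median log2 fold change of all genes was 0.0089 with TMM scaling and 0.1576 when library totals were used. With library totals 5055 genes were higher and 2991 lower, so that 62.8% of the calls were enrichments against 49.3% with TMM. Depletion was most frequent among abundant mRNAs: when genes were divided into 4 groups of equal size by CPM in total RNA, 38.8% of the most abundant group were lower and 17.7% higher, and 13.2% of the least abundant group were lower and 17.5% higher.

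**Figure D1:**
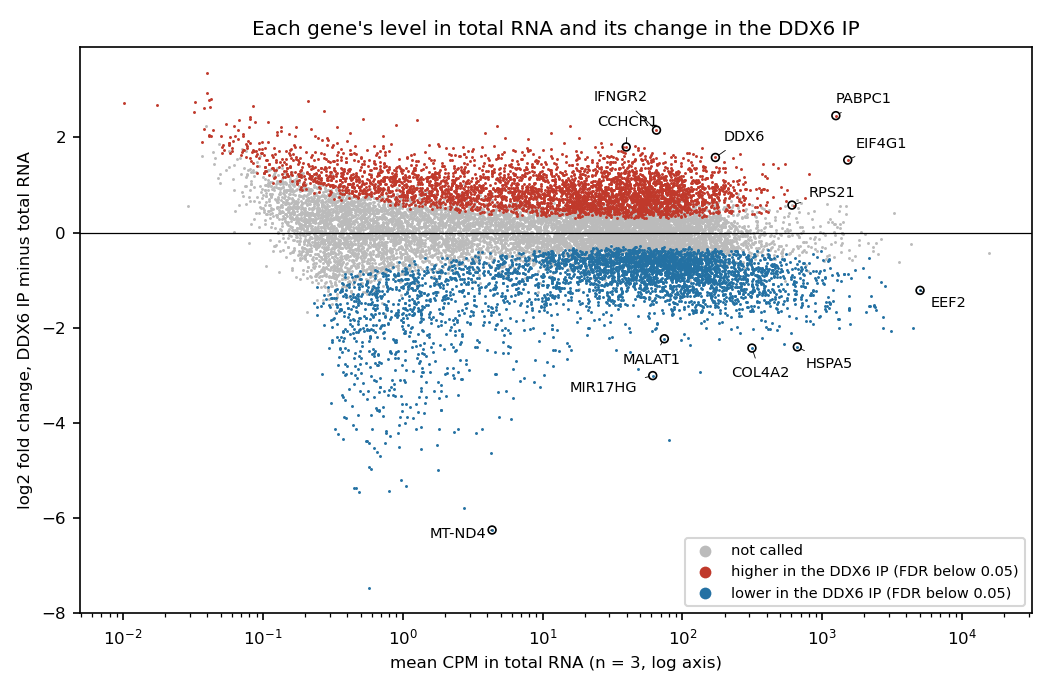
Each point is 1 gene, with its mean CPM in total RNA (n = 3, log axis) against its log2 fold change in the DDX6 IP relative to total RNA, and colours give the call at an FDR below 0.05; 2 genes at 0 CPM in total RNA are not drawn. PABPC1 stands highest among abundant mRNAs at a log2 fold change of 2.46, while HSPA5, COL4A2, MIR17HG and the mitochondrial mRNA MT-ND4 lie far below 0, and most points of the right end lie below 0.

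DDX6 mRNA was itself among the enriched transcripts. It measured 615, 404 and 522 CPM in the DDX6 IP libraries and 166, 177 and 173 CPM in total RNA. The lowest IP value was above the highest total RNA value, and the IP libraries spread more than the total RNA libraries (514 ± 106 against 172 ± 5.83 CPM, SD, n = 3). Its log2 fold change was 1.58 (SE 0.16, FDR 1.54e-05). The gene lies on chromosome 11 at 118618472 to 118661873 of hg19, on the minus strand. RAB12, a small GTPase of membrane traffic, measured 88.2, 103 and 83.9 CPM in the IP and 36.3, 36.8 and 34.3 in total RNA, and STX2, a syntaxin of membrane fusion, 136, 171 and 167 against 51.8, 54.7 and 61.1. Both were enriched, with log2 fold changes of 1.36 (FDR 3.79e-05) and 1.501 (FDR 2.16e-05). For TIMM13, a chaperone of the mitochondrial intermembrane space, the values were 303, 475 and 269 CPM against 253, 272 and 137. RPS21, a small subunit ribosomal protein, measured 726, 1280 and 711 CPM against 734, 717 and 370. In TIMM13 the lowest IP library was below the highest total RNA library, as it was in RPS21, and in both genes replicate 3 was the lowest in both groups. TIMM13 had a log2 fold change of 0.66 (FDR 0.0926, and 0.00452 with the replicate number as a block) and RPS21 of 0.58 (FDR 0.134, and 0.0204 with the block).

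Of the protein-coding genes with at least 20 CPM on average, PABPC1, IFNGR2 and PVRL4 were the most enriched. PABPC1 encodes the cytoplasmic poly(A)-binding protein, and its reads can also match its many retrocopies, which makes its level uncertain. IFNGR2, a chain of the interferon gamma receptor, measured 251, 349 and 271 CPM in the IP against 67.8, 67.5 and 60.3 CPM in total RNA, a 4.45-fold difference (FDR 9.39e-06). PVRL4 (NECTIN4), a cell adhesion protein, measured 37, 55 and 53 CPM against 9.03, 14.3 and 10.9 (4.24-fold, FDR 7.8e-05). MMD, SNN, the homeobox gene MSX1, C12orf75, the CDK2-associated protein gene CDK2AP1, C19orf12 and the phosphatase inhibitor gene PPP1R14C followed with log2 fold changes of 1.80 to 1.99. At the other end stood, among others, mRNAs of secreted, lysosomal and folding proteins. HSPA5 (BiP), the main HSP70 chaperone of the endoplasmic reticulum, measured 126, 112 and 138 CPM in the IP against 629, 669 and 692 in total RNA, 5.3-fold lower (FDR 8.11e-06). COL4A2, a basement membrane collagen chain, was lower by 5.38-fold (FDR 0.000215). The group also held the carboxypeptidase gene CPVL, the secreted chaperone gene CLU, the lysosomal protease gene CTSD, the Golgi protein gene GOLGB1, the cytosolic chaperone gene HSPA4, the non-muscle myosin gene MYH9 and the NADPH oxidase subunit gene CYBA, with log2 fold changes of -2.36 to -2.13. RPL36A had the lowest value of all (log2 -2.86), but it shares exons with a readthrough transcript, so its counts are uncertain.

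The mRNAs of the decapping and P-body machinery were enriched as a group. Of 23 tested members 16 were higher and 2 lower, with a median log2 fold change of 0.71, against 22.7% higher, 23.3% lower and a median of 0.0089 over all genes tested. The list's median log2 ratio to mean total RNA was 0.675 to 0.763 per DDX6 IP library and 0.109 to 0.436 per eIF4A1 IP library. Subunits of the decapping enzyme were enriched, with DCP1A at 373, 183 and 258 CPM in the IP against 92.4, 102 and 100 CPM in total RNA (log2 1.47, FDR 0.000161). DCP1B measured 49.4, 26.1 and 27.3 CPM against 19.7, 19.7 and 15.5 (log2 0.90, FDR 0.00606), and the catalytic subunit DCP2 299, 275 and 333 against 165, 178 and 198 (log2 0.74, FDR 0.00096). For the 3 genes every IP library lay above every total RNA library. Among the activators that bind DDX6, PATL1 measured 287, 233 and 256 CPM against 100, 110 and 85.5 (log2 1.39, FDR 2.11e-05), EDC3 was higher by a log2 fold change of 0.62 (FDR 0.0058), LSM14A by 0.65 (FDR 0.00525) and LSM14B by 0.70 (FDR 0.000387). CCHCR1, a P-body component, stood highest in the list at 219, 109 and 85.7 CPM against 43.2, 38.8 and 36.8 (log2 1.80, FDR 0.00034). On hg19, DCP1A lies on chromosome 3 at 53317449 to 53381613, PATL1 on chromosome 11 at 59404189 to 59436510 and CCHCR1 on chromosome 6 at 31110216 to 31126015, all on the minus strand.

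The LSM1-7 ring, which binds the shortened 3' end of mRNAs and promotes decapping, was enriched for LSM6 (log2 1.30), LSM1 (1.17), LSM5 (1.16), LSM2 (1.11) and LSM4 (0.95). The call of LSM4 was lost without DDX6 IP replicate 2 (FDR 0.0569). LSM3 (log2 0.51, FDR 0.165, and 0.00247 with the block) and LSM7 (log2 0.34, FDR 0.359) did not pass the test. In these 7 mRNAs DDX6 IP replicate 2 was the highest of the 6 libraries. The log2 ratios of these 7 mRNAs to mean total RNA overlapped between the DDX6 IP and eIF4A1 IP libraries. LSM5 stood at 0.845 to 1.553 in the DDX6 IP and 0.661 to 1.4 in the eIF4A1 IP, and LSM2 at 0.72 to 1.549 and 0.705 to 1.355. PNRC2, which links decapping to nonsense-mediated decay, was also higher (log2 0.71, FDR 0.00132). NUDT16, another decapping enzyme, was higher by 0.40, a call lost without DDX6 IP replicate 3 (FDR 0.05 when rounded) or total RNA replicate 1 (FDR 0.0546). In the eIF4A1 IP, PNRC2 and NUDT16 stood at log2 ratios to mean total RNA of 0.838 to 1.097 and 0.601 to 0.673. In the DDX6 IP they stood at 0.518 to 0.86 and 0.334 to 0.435. DCP2 stood at 0.765 to 1.148 in the eIF4A1 IP and 0.603 to 0.883 in the DDX6 IP. The lower members were EDC4, the scaffold of the decapping complex, at 72.1, 57.7 and 66.9 CPM against 106, 125 and 91.1 (log2 -0.71, FDR 0.00229) and XRN1, the 5' to 3' exonuclease, at 61.4, 41.2 and 63.3 CPM against 75.2, 82.3 and 98.4 (log2 -0.63, FDR 0.0191). Leaving out DDX6 IP replicate 2 or total RNA replicate 3 left 1 lower member, and the number of higher members was 15 or 16 whichever library was left out. EIF4ENIF1 (log2 0.11), DCPS (-0.17) and PNRC1 (-0.06) did not pass the test.

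The Ccr4-Not subunits held members called in both directions. CNOT1 to CNOT4, CNOT6 to CNOT8, CNOT6L, CNOT9 (listed as RQCD1), CNOT10, CNOT11 and the associated TNKS1BP1 were tested. Of these 12, 3 were higher and 5 lower, beside 22.7% higher and 23.3% lower of all genes tested. With calls this frequent among all genes, members on both sides do not by themselves set the complex apart. The deadenylase CNOT6 measured 252, 260 and 280 CPM in the IP against 157, 165 and 168 in total RNA (log2 0.69, FDR 0.00112), and its paralog CNOT6L 45.2, 38.8 and 49.5 against 65.0, 67.9 and 74.9 (log2 -0.64, FDR 0.00313). The groups did not overlap in either gene, so the paralogs lay on opposite sides of total RNA. The deadenylase CNOT8 (log2 0.62, FDR 0.00115) and RQCD1, the subunit that binds GW182 proteins (log2 0.68, FDR 0.00142), were also higher, and CNOT10 (log2 -0.74, FDR 0.000137), CNOT2 (-0.40, FDR 0.0117), CNOT4 (-0.35, FDR 0.0234) and TNKS1BP1 (-0.52, FDR 0.0179) lower. The scaffold CNOT1 measured 453, 359 and 503 CPM against 563, 618 and 586 (log2 -0.43, FDR 0.0691). It was called with the replicate block (FDR 0.01), as were CNOT3 (log2 -0.82, FDR 0.083, and 0.00334) and CNOT7 (log2 0.55, FDR 0.0628, and 0.00386), so that 4 were higher and 7 lower. With library totals the split turned to 4 higher and 2 lower. The count of 5 lower members fell to 2 without DDX6 IP replicate 2 and to 3 without DDX6 IP replicate 3 or total RNA replicate 2. CNOT4 was called only with all libraries or without total RNA replicate 3. CNOT2 (FDR 0.0504) and TNKS1BP1 (FDR 0.0781) were lost without DDX6 IP replicate 2, and TNKS1BP1 also without DDX6 IP replicate 3 or total RNA replicate 2. Against the eIF4A2 IP, CNOT4 (log2 0.63, FDR 0.00414) and CNOT7 (log2 0.82, FDR 0.0243) were higher in the DDX6 IP, and the other 10 were not called. CNOT7 was lost there without DDX6 IP replicate 2 (FDR 0.114), eIF4A2 IP replicate 1 (FDR 0.0979) or eIF4A2 IP replicate 3 (FDR 0.0742).

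Other factors that act with Ccr4-Not were mostly enriched or not called. Of 5 tested BTG and TOB proteins, which bind the CNOT7 and CNOT8 deadenylases, 4 were higher and 0 lower, with BTG2 at 135, 142 and 155 CPM against 67.3, 75.7 and 65.6 (log2 1.05, FDR 8.3e-05). This list's median log2 ratio to mean total RNA was 0.465 to 0.699 per DDX6 IP library and 0.447 to 0.572 per eIF4A1 IP library. Of 18 RNA-binding adapters that recruit the complex 8 were higher and 1 lower (median 0.39). They included the translational repressors NANOS1 (log2 1.46, FDR 0.000116), SAMD4B (1.10, FDR 0.000181) and PUM2 (0.73, FDR 0.00633), and the lower member HELZ (-0.58, FDR 0.0101) was lost without DDX6 IP replicate 2 (FDR 0.0511). Among 12 poly(A)-binding proteins and partners 5 were higher and 2 lower, with the nuclear PABPN1 at a log2 fold change of 1.38 (FDR 0.000255) and PABPC1L at -1.76 (FDR 0.000295). Without DDX6 IP replicate 2 the 5 higher members were 3. The Argonaute and GW182 list gave 1 higher (AGO4, log2 0.83, FDR 0.00226) and 2 lower members of 7, AGO3 (-0.61, FDR 0.00442) and AGO2 (-0.63, FDR 0.038). AGO2 kept its call only without DDX6 IP replicate 3, and 2 members were higher without DDX6 IP replicate 2. Library totals gave 2 higher and 1 lower member. Of 7 further deadenylases 2 were higher and 3 lower. PAN3, the partner of PAN2, stood at 0.60 (FDR 0.00366) and the 2'-phosphodiesterase PDE12 at -0.56 (FDR 0.00254). The 2 higher members became 1 without DDX6 IP replicate 2 or 3 or total RNA replicate 1 or 2, and library totals gave 2 higher and 2 lower.

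Decay factors outside decapping and deadenylation were largely on the depleted side. The exosome and SKI complex, which degrade RNA from the 3' end, had 10 of 18 members lower and 1 higher (median -0.53), with EXOSC9 at 37.8, 37.8 and 35.8 CPM against 102, 111 and 113 (log2 -1.55, FDR 1.03e-05) and the SKI helicase SKIV2L at -1.01 (FDR 0.00044). The higher member, EXOSC6 (0.50, FDR 0.0161), was lost without DDX6 IP replicate 3, total RNA replicate 1 or total RNA replicate 3, 2 members were higher without total RNA replicate 2, and the block gave 5 higher and 12 lower. Nonsense-mediated decay factors were lower in 5 of 16 cases and higher in 1, SMG5 (0.90, FDR 0.000347). With the block 3 were higher and 7 lower. Their median of -0.14 turned to 0.022 with library totals. None of 34 other DEAD-box helicases was higher and 25 were lower, with a median of -0.87. DDX17 measured 479, 302 and 420 CPM against 1010, 1020 and 1370 (log2 -1.50, FDR 0.000516). DDX6 was thus called on the opposite side of total RNA from 25 of the 34 other members of its family tested. The same order was seen in the eIF4A IPs. The median log2 ratio of the other helicases to mean total RNA was -0.852 to -0.737 per DDX6 IP library. It was -0.904 to -0.83 per eIF4A1 IP library and -0.614 to -0.586 per eIF4A2 IP library. DDX6 mRNA stood at 0.531 to 0.782 in the eIF4A1 IP and 0.266 to 0.347 in the eIF4A2 IP.

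**Figure D2:**
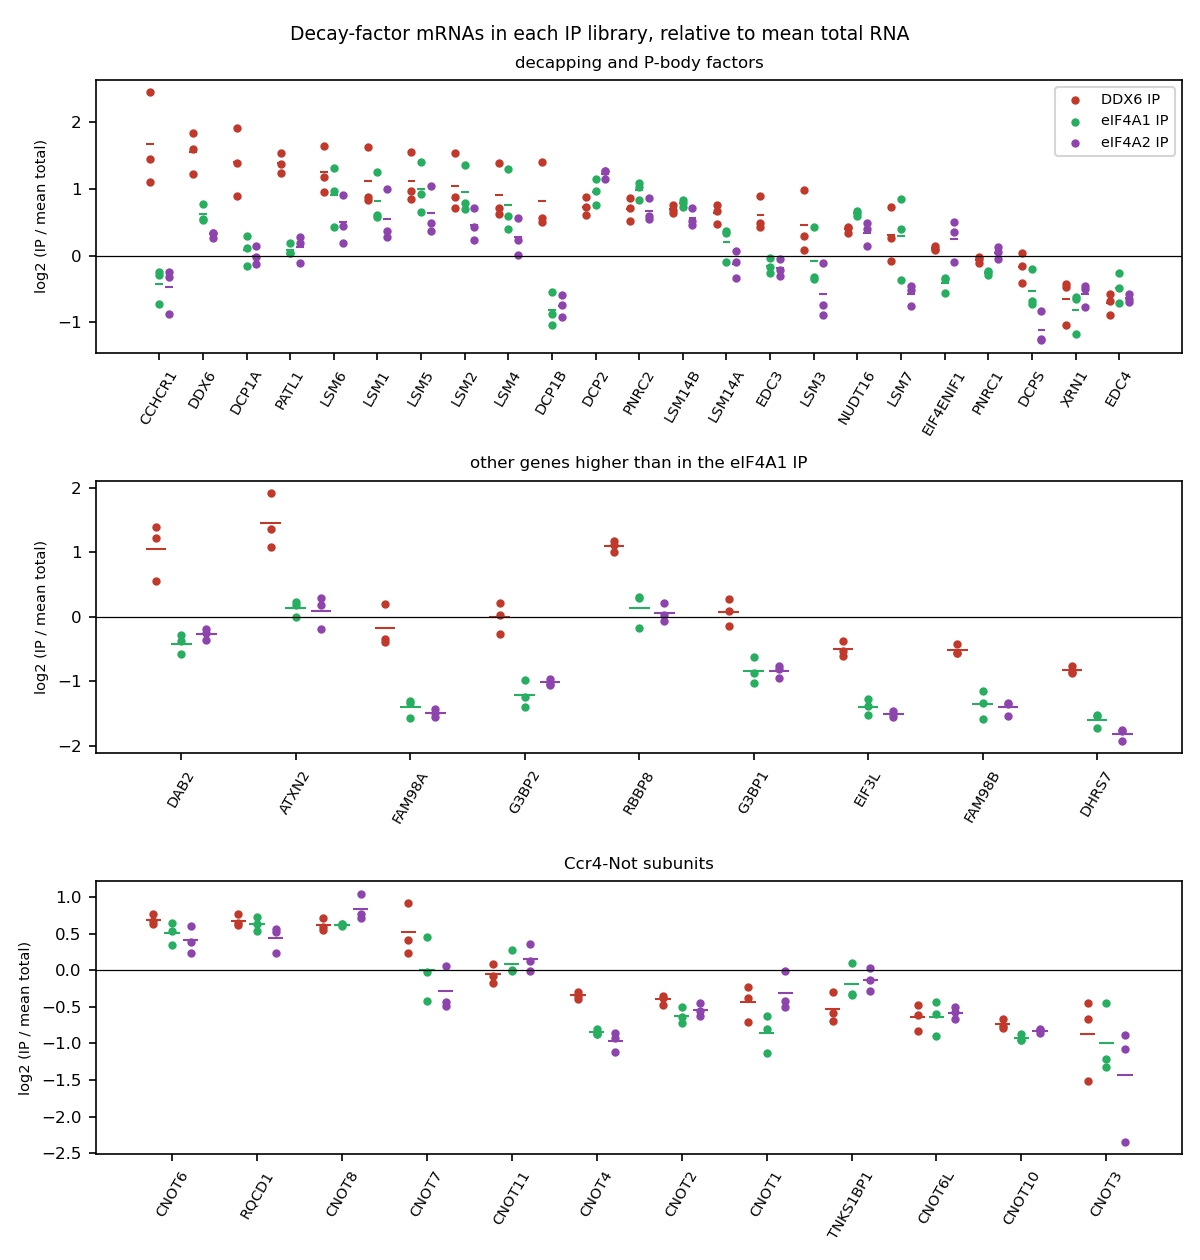
Points give each IP library's log2 ratio to mean total RNA (CPM plus 0.5), with short lines at the mean of 3 libraries, for the DDX6, eIF4A1 and eIF4A2 IPs in 3 panels of mRNAs. In the top panel the DDX6 IP points of CCHCR1, DCP1A, DCP1B and PATL1 stand above those of both eIF4A IPs, while for DCP2 the DDX6 IP points (0.603 to 0.883) lie below those of the eIF4A2 IP (1.156 to 1.269). In the Ccr4-Not panel the CNOT4 points of the DDX6 IP (-0.39 to -0.296) lie above those of the eIF4A2 IP (-1.12 to -0.853), and the CNOT6L points of the 3 IPs overlap.

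A direct comparison asked which of these enrichments differed from those of another DEAD-box helicase IP. Against the eIF4A1 IP 14 genes were higher in the DDX6 IP (0.0801% of 17474) and 2 were lower (0.0114%). At an unadjusted p under 0.05 there were 2438 genes in both directions. The genes named here were chosen after their values were seen. Of the 14 genes 5 belong to the list of 23 decapping and P-body factors: CCHCR1 (log2 2.22 over the eIF4A1 IP, FDR 0.0127), DCP1B (1.74, FDR 0.0127), DCP1A (1.37, FDR 0.027), PATL1 (1.31, FDR 0.0108) and DDX6 (0.95, FDR 0.033). The others were DAB2, an endocytic adapter, ATXN2, a PABP-binding protein that associates with DDX6, the stress granule proteins G3BP1 and G3BP2, FAM98A and FAM98B, which belong to the tRNA ligase complex, the DNA repair gene RBBP8, the initiation factor subunit EIF3L and the dehydrogenase gene DHRS7. All 14 were also called higher than in the eIF4A2 IP, beside 11.3% of all genes tested. That comparison uses the same DDX6 IP libraries by which the 14 were selected, so it is no separate support. Among the gene lists, other TOP mRNAs and initiation factors had 1 member each called higher than in the eIF4A1 IP. Outside these and the decapping list no list had a called member. Of the 23 decapping and P-body factors 11 were higher than in the eIF4A2 IP and 1 lower, DCP2 (log2 -0.49, FDR 0.0276), beside 11.3% and 9.82% of all genes tested. Without DDX6 IP replicate 2, eIF4A2 IP replicate 1 or eIF4A2 IP replicate 3 the counts were 8 and 0, and the block gave 15 and 1. DCP2 kept its call without DDX6 IP replicate 3 and lost it without any one of the other libraries of these groups (FDR 0.0596 to 0.111).

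The levels show what these genes shared and where they parted. PATL1 measured 287, 233 and 256 CPM in the DDX6 IP, 101, 101 and 112 in the eIF4A1 IP and 91.2, 113 and 120 in the eIF4A2 IP. ATXN2 measured 333, 186 and 227 CPM in the DDX6 IP, 99.9, 88.1 and 104 in the eIF4A1 IP and 90.2, 89.0 and 84.4 in total RNA. Both eIF4A IPs thus stood near total RNA for these mRNAs, whereas G3BP1 and G3BP2 gave another order. G3BP2 was at 398, 284 and 350 CPM in the DDX6 IP, 131, 144 and 173 in the eIF4A1 IP and 329, 376 and 324 in total RNA. The DDX6 IP overlapped total RNA there, and the eIF4A1 IP was below both. FAM98A and G3BP1 were likewise not called against total RNA (FDR 0.483 and 0.652), and EIF3L, FAM98B and DHRS7 were lower in the DDX6 IP than in total RNA (log2 -0.50, -0.51 and -0.84). Against total RNA 8 of the 14 genes were higher, 3 lower and 3 not called.

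How firmly these 14 calls stood depended on single libraries and on the fit. DDX6 IP replicate 1 was the highest of its group in 11 of the 14 genes. Of 6 fits that each left out a library of either group, PATL1 kept its call in 5, CCHCR1 and DCP1B in 4, DAB2, FAM98A and G3BP2 in 3, DCP1A, ATXN2, DDX6, RBBP8, G3BP1 and DHRS7 in 1, and EIF3L and FAM98B in 0. The number of higher genes was 3 without DDX6 IP replicate 1, 5 without DDX6 IP replicate 3, 0 without eIF4A1 IP replicate 1, 8 without eIF4A1 IP replicate 2 and 2 without eIF4A1 IP replicate 3, and 6 to 19 without 1 library of total RNA or the eIF4A2 IP, which share the fit. With the replicate block 1062 genes were higher and 668 lower, with DESeq2 362 and 177, and with the 6 compared libraries alone 0 and 0 (1989 genes at an unadjusted p under 0.05).

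Translation factor mRNAs were largely depleted from the DDX6 IP, and most ribosomal protein mRNAs were not called against total RNA. Ribosomal protein mRNAs and those of several translation factors belong to the TOP class, whose transcripts begin with a C followed by a run of pyrimidines that makes their translation depend on mTOR. The first bases of genes from this class and of enriched decapping genes are printed here from RefSeq (GRCh38.p14), as 10 bases before and 20 from the annotated start, and capitals mark the pyrimidine run that begins at the start. They were chosen to show genes with and without that start among mRNAs that differ between the IPs or were named above.
RPS19: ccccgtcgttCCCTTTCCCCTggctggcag
RPS6: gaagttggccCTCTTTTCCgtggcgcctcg
RPS21: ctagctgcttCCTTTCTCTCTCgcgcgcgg
RPL27A: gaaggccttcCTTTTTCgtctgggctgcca
RPL18: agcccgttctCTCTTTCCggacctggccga
RPL36: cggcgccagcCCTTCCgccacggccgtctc
EEF2: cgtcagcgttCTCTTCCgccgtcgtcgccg
RPS15: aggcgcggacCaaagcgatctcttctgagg
PATL1: cgcctgcgcaCgtccccacgcacgctccgg
DDX6: ccccacactcagacgcgcgcccggcgtctc
DCP1A: cgcccccaccagaggggctaggctctggga
TIMM13: cttccggcgcagttagttacgagtcggcgc
A start was counted as TOP-like when a C at the start was followed by 4 pyrimidines on the coding strand, which holds for 1104 of 27305 RefSeq promoters (4.04%). It held for 26 of 42 large subunit, 18 of 26 small subunit and 12 of 15 other TOP genes found in the table, and for 1 of 20 decapping and P-body genes. The annotated start of RPS15 does not begin with such a run.

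In the DDX6 IP, 1 of 53 large subunit ribosomal protein mRNAs was above total RNA and 9 were below it (median -0.21), and of 33 small subunit proteins 1 was higher and 3 lower (median 0.01). The DDX6 IP libraries differed in these lists: the median log2 ratio to mean total RNA was -0.473, 0.056 and -0.465 in DDX6 IP replicates 1, 2 and 3 for the large subunit and -0.221, 0.4 and -0.206 for the small subunit, whose fitted median fell to -0.2 without replicate 2. RPS29 was the higher small subunit member, at 526, 938 and 528 CPM against 312, 308 and 171 (log2 1.33, FDR 0.0019). RPL22L1 was the higher large subunit member (log2 0.99, FDR 0.00404), and RPL29 was lower, at 449, 520 and 253 CPM against 1240, 1300 and 868 (log2 -1.48, FDR 0.00409). RPS15 was lower by 1.23 (FDR 0.0292), a call lost without DDX6 IP replicate 1 or 3 or total RNA replicate 1 or 2 (FDR 0.0607 to 0.106), while RPS6 (-0.01, FDR 0.977), RPS19 (-0.21, FDR 0.551), RPL27A (0.10, FDR 0.77) and RPL18 (-0.39, FDR 0.194) did not pass the test. The block changed these counts, to 5 higher and 24 lower large subunit and 5 higher and 4 lower small subunit proteins. The 9 lower large subunit members were 18 without DDX6 IP replicate 2, 16 without total RNA replicate 3 and 5 without DDX6 IP replicate 1, DDX6 IP replicate 3 or total RNA replicate 2. There were 2 higher large subunit members without DDX6 IP replicate 3, and 2 higher small subunit members without DDX6 IP replicate 1.

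Against the eIF4A2 IP these mRNAs were higher in the DDX6 IP. In that comparison 1969 genes were higher (11.3% of those tested) and 1716 lower (9.82%), while 50 of 53 large subunit proteins were higher and 1 lower (median log2 1.31), and 30 of 33 small subunit proteins higher and 0 lower (median 1.24). RPS19 had a log2 difference of 1.91 (FDR 0.00223), RPS6 of 1.49 (FDR 0.00189), RPL27A of 1.64 (FDR 0.00225), RPS21 of 1.30 (FDR 0.0117) and RPS15, without a TOP-like start, of 1.68 (FDR 0.0165). RPS21 and RPS15 lost their calls without DDX6 IP replicate 2 (FDR 0.0585 and 0.0709) or eIF4A2 IP replicate 1 (FDR 0.055 and 0.0558), and RPS15 also without eIF4A2 IP replicate 3 (FDR 0.0576). The lower member was RPL36A, whose counts are uncertain. The direction is thus that of a lower share in the eIF4A2 IP than in the DDX6 IP, since neither ribosomal list was enriched in the DDX6 IP over total RNA. Without DDX6 IP replicate 2 or eIF4A2 IP replicate 1 the 30 small subunit members were 17 or 18 and the 50 large subunit members 40 or 42. Against the eIF4A1 IP 0 of either list were called, with medians of 0.61 for both.

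A TOP-like start itself went with little difference from total RNA. Of 540 tested protein-coding genes with the start 23.5% were higher and 27.8% lower, and of 9909 without it 22.5% and 24.9%. Other TOP mRNAs were lower in 15 of 22 cases and higher in 0 (median -0.72), and 1 was higher with the block. The elongation factor EEF2 measured 2510, 2350 and 1590 CPM in the IP against 5780, 5610 and 3600 in total RNA (log2 -1.22, FDR 0.00495). NPM1, a nucleolar histone chaperone, measured 750, 765 and 762 CPM against 2100, 2670 and 1870 (log2 -1.54, FDR 2.53e-05). Both groups were apart in either gene. Initiation factors were lower in 24 of 44 cases and higher in 7. EIF4G1, the scaffold of eIF4F, ran against the others at 4950, 4850 and 3360 CPM in the IP against 1560, 1780 and 1230 in total RNA (log2 1.53, FDR 0.003), and EIF4E3, a cap-binding paralog, was higher by 0.94 (FDR 0.000137). EIF3I, a subunit of eIF3, measured 146, 167 and 136 CPM against 515, 568 and 354 (log2 -1.68, FDR 2.12e-05). Elongation and release factors gave 7 lower and 0 higher of 14 (11 lower with the block), among them the ribosome recycling factor ABCE1 (-1.31, FDR 1.7e-05). Every one of the 22 tested cytosolic aminoacyl-tRNA synthetases, which charge tRNAs, was lower, with a median of -1.06 and EPRS at 215, 168 and 244 CPM against 689, 767 and 833 (log2 -1.87, FDR 1.95e-05). The synthetases numbered 21 or 22 when single libraries were left out. Their median ratio to mean total RNA was -1.094 to -0.976 per DDX6 IP library and -1.487 to -1.309 per eIF4A1 IP library (log2).

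Nuclear-encoded mRNAs of the respiratory complexes were called about as often as all genes tested (22.7% higher, 23.3% lower) or less often. Complex I subunits were higher in 5 (13.2%) and lower in 9 (23.7%) of 38 cases (7 and 18 with the block). Complexes II to V were higher in 7 (16.3%) and lower in 8 (18.6%) of 43 (14 and 12 with the block). With library totals the counts were 7 and 7, and 14 and 8. Among the higher members were mRNAs of small subunits. NDUFC1 measured 139, 199 and 134 CPM in the IP against 89.9, 86.2 and 68.7 (log2 0.95, FDR 0.00682) and ATP5E 287, 582 and 281 against 228, 217 and 146 (log2 0.96, FDR 0.0252). DDX6 IP replicate 2 was the highest library in both genes, and without it 1 member of complex I and 1 of complexes II to V was higher. Without total RNA replicate 3 there were 2 and 1. ATP5E had an FDR of 0.164 and 0.102 in these fits. Catalytic and core subunits were among the lower members, with the ATP synthase beta chain ATP5B at 378, 378 and 344 CPM against 1120, 1220 and 899 (log2 -1.55, FDR 1.49e-05), ATP5A1 at -1.08 (FDR 6.55e-05) and UQCRC1 at -1.73 (FDR 3.56e-05).

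Mitochondrial ribosomal proteins gave 7 higher (9.09%) and 28 lower (36.4%) of 77 (median -0.28), beside 22.7% and 23.3% of all genes tested. The small MRPL33 measured 101, 179 and 113 CPM against 42.2, 47.5 and 47.7 (log2 1.52, FDR 0.000209), and MRPS30 50.2, 46.7 and 46.1 against 104, 114 and 105 (log2 -1.17, FDR 1.97e-05). The 7 higher members were 3 without DDX6 IP replicate 2 and 4 without total RNA replicate 3, the 28 lower members 17 without DDX6 IP replicate 3 or total RNA replicate 2, and the block gave 12 higher. In the import machinery 9 of 29 were higher (31.0%) and 5 lower (17.2%). TOMM7, a small subunit of the outer membrane translocase, measured 343, 671 and 377 CPM against 192, 204 and 149 (log2 1.35, FDR 0.00151) and the receptor TOMM70A 83.9, 66.9 and 86.1 against 174, 184 and 164 (log2 -1.14, FDR 0.000114). The block gave 8 lower members. Against the eIF4A2 IP 46 of 77 mitochondrial ribosomal, 23 of 38 complex I and 29 of 43 complex II to V mRNAs were higher and 1, 0 and 0 lower. Without DDX6 IP replicate 2 these were 21, 15 and 15 higher and without eIF4A2 IP replicate 1 23, 16 and 15. Without eIF4A2 IP replicate 3 the mitochondrial ribosomal count was 23. The 8 tested mRNAs encoded in the mitochondrial genome were lower than in total RNA in all 8 cases. Their levels were low, at 0 to 0.158 CPM in the IP libraries and 0.287 to 6.9 CPM in total RNA. The reason for these low levels was not tested.

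Protein folding and degradation mRNAs were on the depleted side, as they were in the eIF4A1 IP. Of 35 proteasome subunits 30 were lower and 0 higher (median -0.96), with the base subunit PSMD1 at 67.7, 60.1 and 59.0 CPM against 254, 281 and 206 (log2 -1.99, FDR 8.11e-06). The CCT chaperonin, which folds actin and tubulin, was lower in all 8 tested members (median -1.47), with CCT7 at 232, 235 and 217 CPM against 920, 965 and 706 (log2 -1.92, FDR 8.11e-06). These 8 calls held when any one library was left out. Its clients were lower in part: of 17 tubulins 9 were lower and 1 higher, with TUBB at 785, 833 and 797 CPM against 2510, 2760 and 1720 (log2 -1.53, FDR 3.68e-05). The block gave 2 higher tubulins. The chaperones of the endoplasmic reticulum were lower in 14 of 18 cases and higher in 1. CANX, the lectin chaperone calnexin, measured 355, 289 and 459 CPM against 1190, 1260 and 1450 (log2 -1.82, FDR 6.17e-05) and the disulfide isomerase PDIA3 121, 99.6 and 123 against 465, 432 and 515 (log2 -2.04, FDR 8.11e-06). The exception was MANF, a secreted stress-induced factor, at 109, 146 and 129 CPM against 66.9, 73.7 and 73.1 (log2 0.84, FDR 0.00463). There were 2 higher members without DDX6 IP replicate 1 or total RNA replicate 2, and 2 with the block. Median log2 ratios to mean total RNA per library were compared between the DDX6 IP and the eIF4A1 IP. They were -1.494 to -1.444 and -1.768 to -1.677 for the CCT chaperonin and -1.172 to -0.802 and -1.517 to -1.089 for the proteasome. For ER chaperones they were -1.261 to -1.072 and -1.476 to -1.077. Against the eIF4A1 IP 0 members of these lists or of the tubulins were called.

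Membrane and extracellular proteins differed by class. Basement membrane collagens and laminins gave 13 lower and 0 higher of 23, including COL4A1 (log2 -1.78, FDR 0.000212) beside COL4A2, and integrins and cadherins 14 lower and 2 higher of 37, including ITGAV (-1.24, FDR 0.00288). The higher members CDH24 (0.67, FDR 0.00206) and ITGB5 (0.35, FDR 0.0427) became CDH24 alone in 5 of the 6 fits without 1 library, when DDX6 IP replicate 1, 2 or 3 or total RNA replicate 2 or 3 was left out. The solute carriers, multi-pass transporters of the plasma and organelle membranes, lay near the background with 45 higher and 52 lower of 224. SLC25A23, a mitochondrial carrier, measured 287, 414 and 319 CPM against 107, 121 and 91.6 (log2 1.68, FDR 1.78e-05) and the lactate transporter SLC16A1 255, 231 and 330 against 731, 760 and 894 (log2 -1.55, FDR 6.86e-05). Their 52 lower members were 32 without DDX6 IP replicate 2 and 33 without total RNA replicate 3, and library totals gave 58 higher and 31 lower. In cholesterol metabolism 14 of 26 genes were lower and 2 higher. The lower genes included the enzyme DHCR7 (-1.35, FDR 0.000123), and the higher ones were regulators, SREBF2, the transcription factor of the pathway, at 529, 333 and 654 CPM against 254, 235 and 256 (log2 1.02, FDR 0.00261), and INSIG1, which retains SREBP in the endoplasmic reticulum, at 594, 739 and 789 against 352, 348 and 427 (log2 0.91, FDR 0.00132).

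Several regulatory classes had more enriched than depleted members. In these classes the median log2 ratio to mean total RNA per library overlapped between the DDX6 IP and the eIF4A1 IP. HOX genes stood at 0.399 to 0.629 and 0.384 to 0.778, and RAB GTPases at 0.116 to 0.218 and -0.027 to 0.201. KMT2 and SETD methyltransferases stood at 0.198 to 0.285 and -0.076 to 0.224. Of 36 HOX genes, which set axial identity, 16 were higher and 5 lower (median 0.61), with HOXB2 at 16.0, 23.3 and 18.2 CPM against 7.71, 7.45 and 7.61 (log2 1.34, FDR 6.51e-05) and HOXD10 at 14.2, 13.7 and 16.0 against 20.8, 19.5 and 29.5 (log2 -0.67, FDR 0.00451). The 5 lower genes were 2 without DDX6 IP replicate 2 or total RNA replicate 3 and 3 without DDX6 IP replicate 3 or total RNA replicate 1. RAB GTPases gave 20 higher and 8 lower of 53. RAB40B measured 65.0, 98.0 and 77.2 CPM against 26.8, 26.0 and 24.7 (log2 1.63, FDR 3.96e-05) and RAB7A 165, 179 and 154 against 269, 307 and 201 (log2 -0.64, FDR 0.0101). RAB7A was lost without total RNA replicate 2 (FDR 0.0554). The 8 lower RAB genes were 4 without DDX6 IP replicate 1 or 2 or total RNA replicate 2. Among 17 KMT2 and SETD histone methyltransferases 6 were higher and 1 lower, with SETD8 at 334, 378 and 225 CPM against 115, 127 and 110 (log2 1.41, FDR 0.00528). The lower one, KMT2D (-0.86, FDR 0.024), was lost without DDX6 IP replicate 2 or 3 or total RNA replicate 2, and 2 were lower without DDX6 IP replicate 1 and with the block.

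Cell cycle genes were divided. Cyclins and CDK inhibitors gave 11 higher (33.3%) and 7 lower (21.2%) of 33, beside 22.7% and 23.3% of all genes tested. The inhibitor CDKN2D measured 18.6, 25.6 and 20.4 CPM against 6.00, 5.74 and 4.38 (log2 2.00, FDR 1.69e-05), and the S and G2 phase cyclin CCNA2 73.0, 69.0 and 72.7 against 203, 222 and 181 (log2 -1.50, FDR 8.11e-06). Of 10 tested MCM genes, a list not limited to subunits of the replicative helicase, 8 were lower and 0 higher whichever library was left out. MCM6 measured 113, 93.0 and 107 CPM against 298, 292 and 265 (log2 -1.45, FDR 1.69e-05). Nuclear pore proteins (19 of 29 lower, 0 higher, and 1 higher with the block), SR proteins and hnRNPs (21 of 36 lower, 3 higher), Sm, LSm and SF3 proteins (9 of 22 lower, 2 higher, and 14 and 4 with the block) and kinesins (14 of 36 lower, 5 higher) were on the depleted side. HNRNPU, a nuclear scaffold protein, measured 463, 397 and 310 CPM against 1250, 1330 and 1160 (log2 -1.68, FDR 0.000316), while SRSF9, a splicing factor, measured 532, 775 and 541 against 273, 322 and 231 (log2 1.16, FDR 0.00138). Zinc finger proteins numbered ZNF lay near the background with 77 higher and 95 lower of 453 (60 lower without DDX6 IP replicate 2). Their median of -0.07 became 0.083 with library totals, which gave 104 higher and 45 lower, and against the eIF4A2 IP 12 were higher and 102 lower. The 102 were 54 without DDX6 IP replicate 2, 55 without eIF4A2 IP replicate 1, 64 without DDX6 IP replicate 3 and 167 with the block. The related ZBTB factors gave 10 higher and 10 lower of 40, with 6 lower without DDX6 IP replicate 2 or total RNA replicate 3 and 11 higher and 6 lower with library totals.

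**Figure D3:**
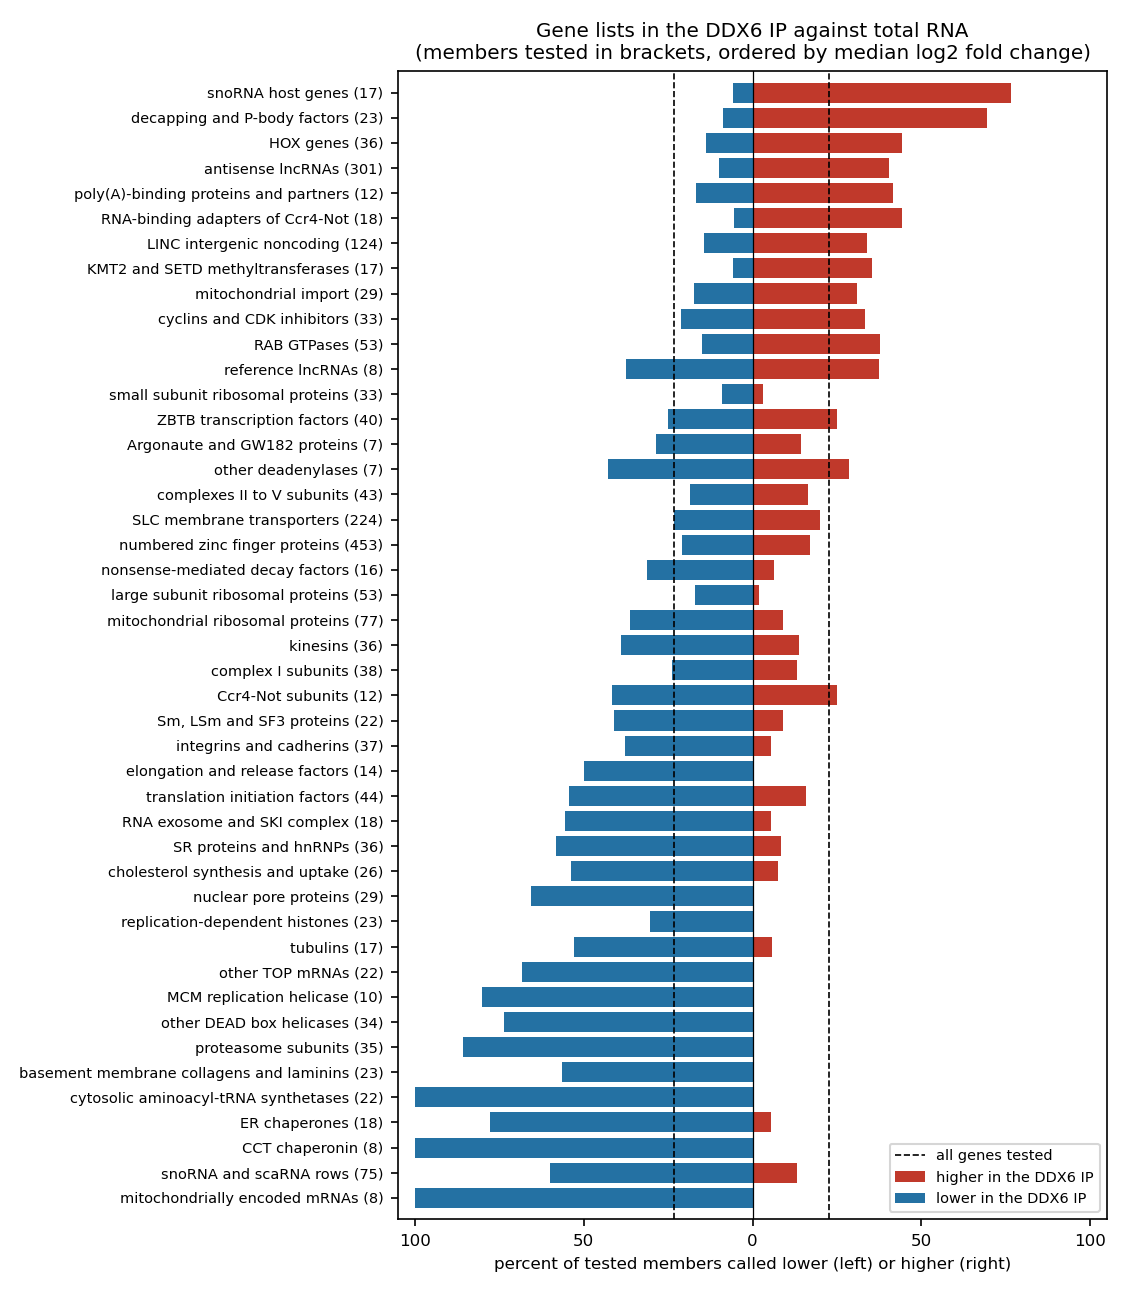
For each gene list with at least 7 tested members, bars give the percent called higher (right) or lower (left) in the DDX6 IP than in total RNA, with the number tested in brackets, lists ordered by their median log2 fold change, and dashed lines at the 22.7% and 23.3% of all genes tested. At the top stand snoRNA host genes and decapping factors, and at the bottom the mitochondrially encoded mRNAs, snoRNA rows, the CCT chaperonin, ER chaperones and aminoacyl-tRNA synthetases.

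**Figure D4:**
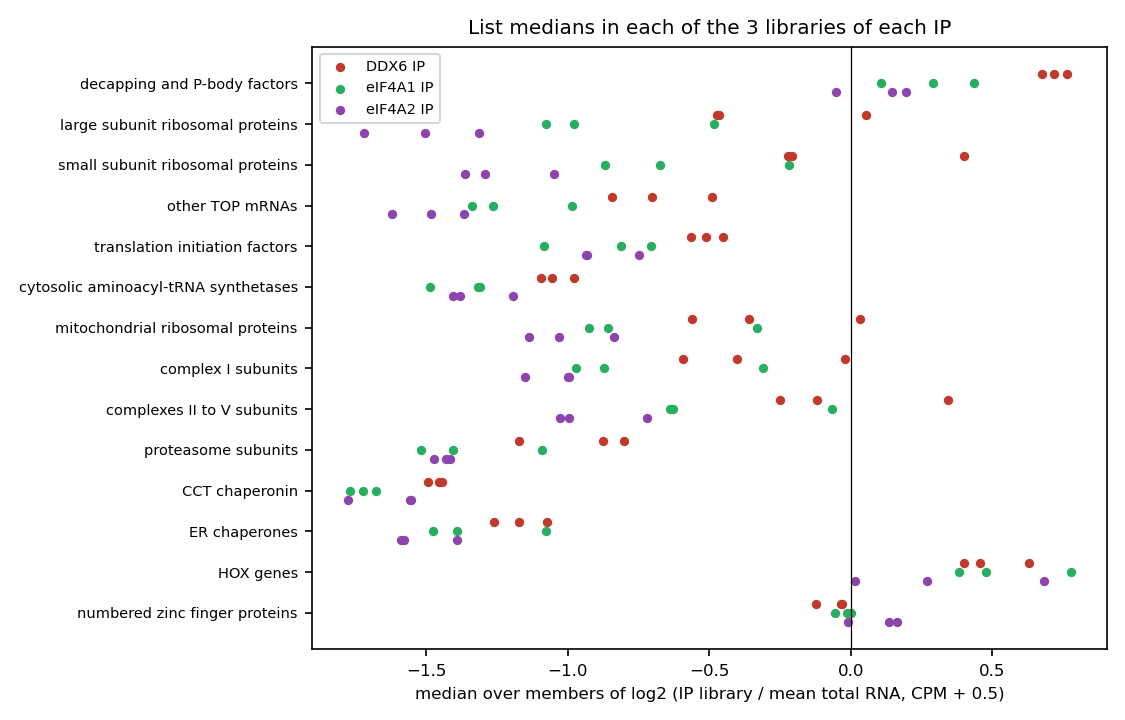
Each point is the median over a list's members of the log2 ratio of 1 IP library to mean total RNA, 3 libraries per IP, for 14 lists. The decapping list lies to the right in the DDX6 IP libraries (0.675 to 0.763). The synthetases lie to the left in the DDX6 IP (-1.094 to -0.976) and further left in the eIF4A1 IP (-1.487 to -1.309). The ribosomal and respiratory lists spread widely between DDX6 IP libraries and lie to the right of the eIF4A2 IP.

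Noncoding RNAs divided by their kind. Of 471 annotated lncRNAs 165 were higher (35.0%) and 71 lower (15.1%), with a median of 0.37. The spliced, cytoplasmic lncRNA NORAD (listed as LINC00657), which holds many Pumilio motifs, measured 998, 983 and 1080 CPM in the IP against 358, 367 and 400 in total RNA (log2 1.44, FDR 2.09e-05). The nuclear lncRNAs MALAT1, at 15.8, 11.8 and 19.7 CPM against 70.0, 47.0 and 105 (log2 -2.23, FDR 0.000109), NEAT1 (-1.37, FDR 0.00111) and KCNQ1OT1 (-1.52, FDR 0.00608) were lower, with no overlap of the groups in MALAT1. Of 8 reference lncRNAs in all 3 were higher and 3 lower. MIR17HG, the precursor of the miR-17 cluster, was lower by 8.05-fold (FDR 1.13e-05). Spliced snoRNA host genes, whose introns hold snoRNAs, were higher in 13 of 17 cases and lower in 1. Their median log2 ratio to mean total RNA was 0.581 to 1.303 per DDX6 IP library and 0.563 to 1.086 per eIF4A1 IP library. SNHG16 measured 659, 1010 and 781 CPM against 255, 274 and 244 (log2 1.66, FDR 7.76e-05) and SNHG7 241, 337 and 223 against 92.2, 94.2 and 71.9 (log2 1.63, FDR 8.82e-05), whereas SNHG3 was lower (-1.30, FDR 6.05e-05). The snoRNA and scaRNA rows, which count reads inside introns of such genes, ran the other way with 45 of 75 lower and 10 higher. SCARNA15 measured 1.79, 1.17 and 1.88 CPM against 9.21, 9.12 and 13.7 (log2 -2.72, FDR 3.4e-05). Poly(A)-selected libraries hold few mature snoRNAs, so these rows do not measure the snoRNA itself. Of 3 tested spliceosomal, 7SL and 7SK RNAs, which lack a poly(A) tail, 1 was higher and 2 lower.

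Antisense lncRNAs were higher in 122 of 301 cases and lower in 30, and intergenic LINC genes in 42 and 18 of 124. Median log2 ratios to mean total RNA per library were higher in the eIF4A1 IP than in the DDX6 IP. They were 0.356 to 0.471 against 0.276 to 0.299 for antisense and 0.248 to 0.348 against 0.126 to 0.228 for LINC genes. The most enriched named antisense gene was TRAF3IP2-AS1, at 23.2, 29.3 and 25.8 CPM against 7.29, 7.96 and 8.33 (log2 1.73, FDR 8.11e-06), and the most depleted HNRNPU-AS1, at 20, 14.6 and 17.8 against 112, 108 and 178 (log2 -2.93, FDR 8.11e-06). The option used to count strands was not stated, so reads of an antisense gene and of its partner cannot be told apart with certainty. Among LINC genes, LINC00680 measured 74.3, 94.6 and 74.7 CPM against 25.2, 24.1 and 25.9 (log2 1.70, FDR 8.3e-06) and LINC00641 21.5, 18.1 and 20.5 against 43.4, 53.7 and 46.3 (log2 -1.25, FDR 2.14e-05). The groups did not overlap in either. Against the eIF4A2 IP the antisense list gave 11 higher and 49 lower genes, and 23 and 73 with the block. Only 1 gene was higher without DDX6 IP replicate 2 or eIF4A2 IP replicate 1. The lower genes were 20 without DDX6 IP replicate 2, 22 without eIF4A2 IP replicate 1, 24 without DDX6 IP replicate 3, 26 without DDX6 IP replicate 1 and 30 without eIF4A2 IP replicate 3, and library totals gave 1 and 62.

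Protein-coding genes on either side of total RNA differed in length and base composition. These are descriptions across genes, which are not replicates. Of 13684 tested protein-coding genes 3123 were higher (22.8%) and 3294 lower (24.1%), and 13675 had an annotated coding transcript. The median coding sequence was 1100 nt in the higher, 1690 in the lower and 1500 in the genes not called. Genes were divided into 4 groups of equal size by each feature. In the group with the shortest coding sequences, up to 909 nt, 36.4% were higher and 12.7% lower, and in the group with the longest, from 2310 nt, 13.0% were higher and 29.4% lower. The median GC content of the last position of codons was 64.9% in the higher, 49.9% in the lower and 61.1% in the genes not called. From the lowest to the highest group by this measure the share of higher genes went from 14.3% to 28.8% and that of lower genes from 36.2% to 13.1%. Higher genes also had fewer exons, 7 against 12 as medians, and a more GC-rich 5'UTR, 70.2% against 64.2%. In the group with the most GC-rich 5'UTRs 34.8% were higher and 14% lower.

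Length and composition each went with the call within groups of genes alike in the other. Among the shortest coding sequences the share of higher genes ran from 30.3% to 39.2% over the 4 groups by codon-end GC, and among the longest from 6.89% to 20.4%. Genes both short and GC-rich were lower in 6.85% of cases, and genes both long and GC-poor in 40.6%. The rank correlation with the log2 fold change across genes was -0.267 for coding length and 0.235 for codon-end GC. Coding length varied between libraries, at -0.168, -0.395 and -0.196 for DDX6 IP replicates 1, 2 and 3, and codon-end GC gave 0.262, 0.265 and 0.149. Replicate 2 is thus the library in which short mRNAs stood highest, as seen above for LSM, RPS29, ATP5E and TOMM7. The 3'UTR length differed little, with medians of 1260 nt in the higher and 1060 nt in the lower genes. A Pumilio motif (TGTANATA on the sense strand, with N any base) was present in the 3'UTR of 29.1% of the higher, 26.6% of the lower and 28.1% of all genes with an annotated 3'UTR record. AU-rich pentamers (ATTTA) numbered a median of 2 per 3'UTR in all classes, and per kb of 3'UTR 1.51 in the higher, 2.01 in the lower and 1.54 in the genes not called. In the group with the densest pentamers 20.3% were higher and 28.2% lower. Against the eIF4A2 IP the genes higher in the DDX6 IP had a median coding sequence of 783 nt and the genes lower one of 1710 nt. Codon-end GC took the other direction there, at 56.0% in the genes higher in the DDX6 IP and 62.7% in the genes lower.

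Polysome association was measured in other libraries than those that made the classes. For each gradient the median log2 ratio of polysomal to subpolysomal CPM of a class was taken minus that of all genes tested. In cells given control siRNA the genes higher in the DDX6 IP lay below the other genes, at -0.12, -0.197, -0.42 and -0.246 in gradients 1 to 4 (-0.246 ± 0.127, SD, n = 4). The genes lower in the DDX6 IP lay above, at 0.273, 0.345, 0.655 and 0.516 (0.448 ± 0.172), and the classes did not overlap. An exact two-sided sign-flip permutation test gave p = 0.125 for each class, which is the smallest value 4 gradients allow. Gradient 3 was the most extreme in both classes. In the polysomal libraries of that gradient the CNOT1 level went against the labels, with 26.8 CPM in the library labelled control siRNA and 628 CPM in the library labelled CNOT1 siRNA, whereas the polysomal libraries of the other gradients had 475 to 503 CPM in control cells and 22.7 to 30.8 CPM after knockdown. Without gradient 3 the values were -0.188 ± 0.063 and 0.378 ± 0.125 (n = 3).

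The order held within each of the 4 groups by coding length. From the shortest to the longest group the higher genes stood at -0.277, -0.321, -0.266 and -0.383 and the lower genes at 0.695, 0.563, 0.451 and 0.377. Restricted to genes past a log2 fold change of 1 or -1, the higher genes stood at -0.404 ± 0.159 and the lower genes at 0.231 ± 0.049, and at -0.331 ± 0.075 and 0.233 ± 0.060 without gradient 3. With CNOT1 siRNA the higher genes stood at -0.407 ± 0.014 and the lower genes at 0.536 ± 0.070 (n = 4, exact permutation p = 0.125 for each), and at -0.413 ± 0.010 and 0.517 ± 0.073 without gradient 3. In total RNA of the gradient experiment the classes differed from all genes in their change after CNOT1 siRNA by -0.026 ± 0.017 for the higher and -0.039 ± 0.018 for the lower genes. In the subpolysomal fraction the higher genes stood at 0.117 ± 0.030 and the lower genes stood at -0.092 ± 0.026, with the same sign in each of the 4 gradients for either class (exact permutation p = 0.125). In the polysomal fraction the higher genes stood at -0.052 ± 0.109, and at -0.104 ± 0.044 without gradient 3. With siRNAs against TNRC6A and TNRC6B the classes differed from all genes by -0.003 ± 0.025 and 0.004 ± 0.008 (n = 2), with opposite signs in the 2 pairs of libraries.

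**Figure D5:**
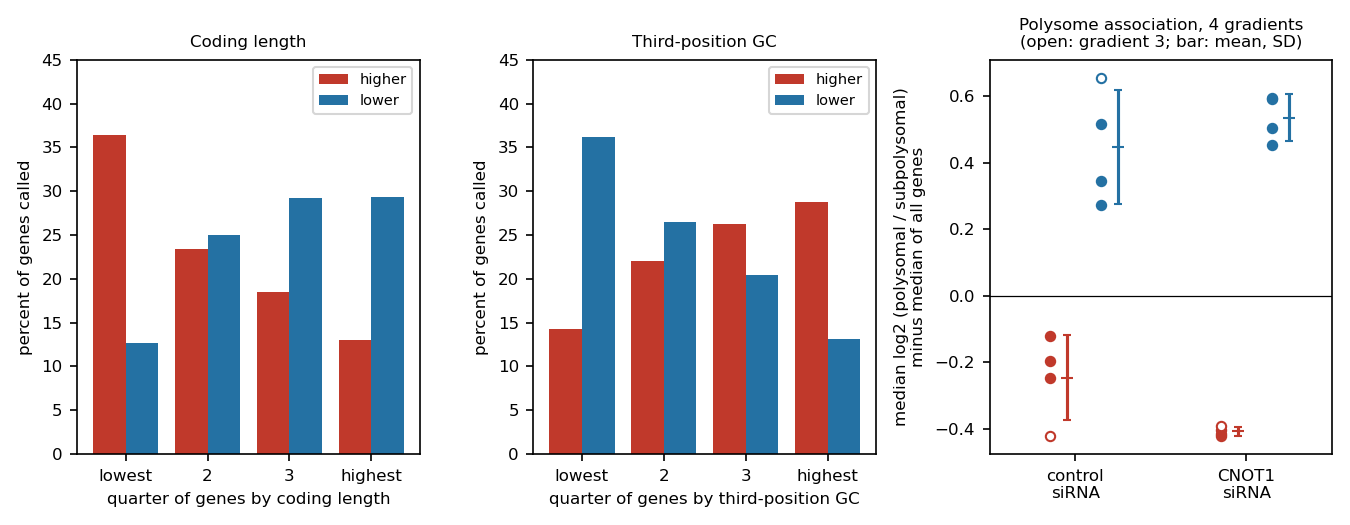
The left and middle panels give the percent of protein-coding genes called higher or lower in the DDX6 IP in each of 4 equal groups by coding length and by GC content of the last codon position, and the right panel the median log2 polysomal/subpolysomal ratio of each class minus that of all genes, 1 point per gradient (open for gradient 3) with mean and SD (n = 4). Enrichment falls from 36.4% to 13.0% with coding length and rises from 14.3% to 28.8% with codon-end GC, and the higher genes lie below 0 and the lower genes above 0 in each gradient.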

How the data were processed

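Strand-specific, poly(A)-selected RNA-Seq libraries were aligned by the authors to hg19 with TopHat2 and counted with HTSeq, after demultiplexing with bcl2fastq 2.0. Versions of the aligner and counter and the strand option are not given in the sources used here. The deposited files hold counts, 1 whole number per gene symbol and library, not normalised. A further deposited table holds the authors' own fold changes and p-values of the IPs over total RNA, and was not used.

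Counts were analysed with edgeR 4.0.16 (R 4.3.3, limma 3.58.1) in 1 fit of the 12 RIP libraries by group, with filterByExpr, TMM factors and two-sided quasi-likelihood F-tests. The threshold for a call was a Benjamini-Hochberg FDR under 0.05, adjusted over the 17474 genes tested. CPM values use the TMM-adjusted totals, except those of the cell type markers, which use library totals. Ratios outside the fit used a pseudocount of 0.5 CPM. Depth was 29.5 to 45.4 M counts (M, mega) per compared library, and reads carry no molecular identifiers, so depth describes counting error only. Counts of this comparison were simulated for 16906 genes, of which 200 were changed. Of genes changed by a log2 of 1, 75% were recovered, and 8% of those changed by 0.5, with 5 false calls. Replicates of a group differed by more than sampling noise, and each was counted as its own sample. The groups come from the sample titles, and the description of total RNA replicate 3 calls it replicate 2.

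Same-numbered libraries deviated from their group means together (r = 0.165, 0.331 and 0.46 for DDX6 IP and total RNA replicates 1, 2 and 3, 0.285, 0.628 and 0.515 with the eIF4A1 IP, and 0.476, 0.46 and 0.503 with the eIF4A2 IP, across genes), so the numbers were taken to pair the samples. The values reported come from the fit by group, which leaves this pairing out. The fit with the replicate number as a block is given beside a result it changes.

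The 47 gene lists and the compared groups were chosen with earlier results of these data known. Lists are described by counts and medians beside all genes, without a test. Genes are named by rule: DDX6 and the genes the study followed by RT-qPCR, the 10 most enriched and 10 most depleted coding genes of at least 20 CPM whose groups do not overlap, up to 3 called members of each list in each direction of at least 5 CPM, every decapping and Ccr4-Not member, and 3 noncoding genes in each direction. Gene positions and transcript features came from GENCODE release 44 on GRCh37, in which 33529 of 55765 symbols matched by current and 1688 by older name, and coordinates are 1-based. Starts came from RefSeq on GRCh38.p14. Alternatives were DESeq2 1.42.0, RLE factors, library totals, no filter on low counts, the replicate block, the compared libraries alone, and leaving out each replicate. Those on the comparisons with the eIF4A IPs, on coding length and on the compared libraries with the block were added after seeing the data.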

Additional observations from a re-analysis of the deposited data

Results flagged for a closer look

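After CNOT1 siRNA the genes higher in the DDX6 IP were shifted in the subpolysomal fraction, relative to all genes, by 0.072 in the gradient with the lowest value, while the other 3 gradients lay close together up to 0.137. The distance of that gradient from the rest was 0.845 of the whole range, above the limit for 4 samples, and chance flags about 1 in 20 such groups. The gradient is number 3, in whose polysomal libraries the CNOT1 level went against the labels, and its part in this value was not tested.

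For the same genes the shift after CNOT1 siRNA was below 0 in each of 4 input pairs (-0.044 to -0.007) and above 0 in each of 4 subpolysomal pairs (0.072 to 0.137), so that the means differed by 0.142. That difference itself was not tested.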

How the results depend on the processing

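For the comparison with total RNA the count of higher genes ranged from 3210 to 5503 and that of lower genes from 2991 to 5390 over the alternatives, within 1.5 times the values reported. The replicate block gave 5174 and 5313 genes (3964 and 4079 shared with the values reported), and 5503 and 5390 with the 6 compared libraries alone. Apart from the genes and lists for which a value with the block is printed above, the block changed no call of a named gene. DESeq2 gave 4049 and 4360, leaving out 1 of the 6 compared libraries 3210 to 3599 and 3357 to 3708, and leaving out 1 eIF4A IP library 3940 to 4178 and 4040 to 4342. Against the eIF4A1 IP, the 14 higher and 2 lower genes became 362 and 177 with DESeq2, 130 and 102 without a filter, 1062 and 668 with the replicate block, 0 and 0 with the 6 compared libraries and 2103 and 1337 with these and the block, and library totals gave 9 higher. Leaving out 1 library of these groups gave 0 to 11 higher and 0 to 5 lower, and 1 of the others 6 to 19 and 1 to 5. Against the eIF4A2 IP, the 1969 higher and 1716 lower genes became 3842 and 3232 with the replicate block, 4107 and 3290 with the 6 compared libraries and the block, and 1144 and 2677 with library totals. Leaving out 1 library of the others gave 1587 to 2158 higher and 1429 to 1741 lower, and 1 of these groups 723 to 1887 and 745 to 1596, with 742 and 745 without DDX6 IP replicate 2, 723 and 924 without eIF4A2 IP replicate 1, 1193 higher without eIF4A2 IP replicate 3, and 1111 and 1138 lower without DDX6 IP replicate 1 and 3. The cause was not tested. Library totals turned 7 list medians from below to above 0, those of nonsense-mediated decay factors (0.022), numbered zinc finger proteins (0.083), solute carriers (0.113), other deadenylases (0.121), complexes II to V (0.122), ZBTB factors (0.125) and Argonaute and GW182 proteins (0.129). The polysome association of the higher genes was -0.447 with control siRNA and -0.606 with CNOT1 siRNA among genes of at least 10 CPM, -0.491 with CNOT1 siRNA at a pseudocount of 0.1 CPM, and -0.383 within the group of longest coding sequences, and that of the lower genes 0.695 within the shortest. Named genes kept direction and side of the threshold in 3080 cases, fell short in 105 and newly passed in 26. The simulated comparison changed only 200 genes, against 3965 higher and 4079 lower genes called here. Its recovery of 8% at a log2 of 0.5 therefore does not give the share recovered in these data.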

Other observations

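The share of called genes varied by chromosome. Of 481 tested protein-coding genes on chromosome X 14.1% were higher in the DDX6 IP than in total RNA and 32.0% lower, and of 814 on chromosome 17 28.4% were higher and 22.7% lower. Over all protein-coding genes tested the shares were 22.8% and 24.1%.

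Other RNA classes are given against the 22.7% higher and 23.3% lower of all genes tested. Of 37 miRNA rows 3 were higher and 16 lower (43.2%), of 148 processed pseudogenes 18 were higher (12.2%) and 32 lower (21.6%), and of 23 replication-dependent histone genes, whose mature mRNAs carry no poly(A) tail, 0 were higher and 7 lower (30.4%).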
